A study of Mus musculus with 6 samples.

Results

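The genes described here encode 34 mouse translation initiation and elongation factors, a set made of eIF and eEF genes together with Pabpc1. They were picked by Ensembl gene identifier, all 34 were found, and they make up 34 of the 39179 genes counted. Their values come from bulk RNA sequencing of B16-F10 cells, a mouse melanoma line grown in culture, with 3 libraries labelled Sirpa-KO (a knockout of Sirpa, which encodes the CD47 receptor SIRPα) and 3 labelled Sirpa-WT (Sirpa intact). No treatment, age or time point is given for either group, and both lack a description of how the line was edited or whether it is 1 clone. One label field calls the cell line Pmel and the tissue tumor, whereas the series text describes cultured B16-F10 cells. Whether replicates came from separate cultures is not stated, and the p-values reflect no more than the variation among these 6 libraries.

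Translation starts when eIF2 carries the initiator tRNA to the small ribosomal subunit together with eIF1, eIF1A, eIF3 and eIF5, and the eIF4 factors bring in the mRNA by its cap. The helicase eIF4A unwinds the 5′ leader, eIF5B joins the large subunit, and the eEF1 complex and eEF2 then deliver aminoacyl-tRNA and move the ribosome along. Several of these mRNAs are among the most abundant of growing cells, and abundant mRNAs have left many processed pseudogenes, intronless copies pasted back into the genome, on which fragments of the gene itself can be counted.

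The libraries were of very unequal depth. Sirpa-KO replicate 1 held 29877270 counts, 82.6 times the mean of the others, and is called the deep library below; the other 5 held 338824 to 411695. In those shallow libraries 3 counts correspond to 7.29 to 8.85 CPM, a unit in which the counts of a library are scaled to a fixed total. Sirpa itself had 1584, 6 and 6 counts in Sirpa-KO and 12, 7 and 3 counts in Sirpa-WT, or 53.02, 17.7 and 16.3 CPM in Sirpa-KO and 29.1, 20.4 and 8.68 CPM in Sirpa-WT. Its log2 fold change was 0.17 with all libraries (edgeR without the count filter, adjusted p = 0.938) and -0.38 without the deep one (adjusted p = 0.806). The groups overlapped, so these counts do not check the genotype labels. All 7 listed melanocyte markers had counts in each library, with a summed level of 15519, 12626 and 12990 CPM in Sirpa-KO and 19092, 17283 and 15960 CPM in Sirpa-WT. Of markers of other cell types, Ptprc, Cd3e, Csf1r, Pecam1, Cdh5, Kdr, Dcn and Krt14 were at 0 in each shallow library, and the summed leukocyte, fibroblast and keratinocyte lists stayed at or below 29.9, 13.6 and 2.95 CPM there. In bulk RNA, fewer cells of a kind and less RNA per cell cannot be told apart.

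Where a fragment spans 2 exons of a translation factor mRNA, the intronless copy can hold the same letters in 1 run, and 3 such stretches are shown because their genes had many counts in pseudogenes. Each runs 5′ to 3′ over 80 bases of GRCm38 from the GENCODE M21 annotation. In the gene lines the capitals are the last base of one exon and the first base of the next. In the pseudogene lines capitals mark bases that differ from the gene.
Eef1a1, exons 3 and 4, minus strand, chr9:78480241-78480280 and chr9:78480109-78480148: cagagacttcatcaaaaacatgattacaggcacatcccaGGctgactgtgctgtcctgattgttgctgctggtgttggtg
Gm13456, plus strand, chr2:40556011-40556090: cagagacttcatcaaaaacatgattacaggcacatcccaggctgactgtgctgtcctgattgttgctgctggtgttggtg
Eif2s2, exons 2 and 3, minus strand, chr2:154888183-154888222 and chr2:154887768-154887807: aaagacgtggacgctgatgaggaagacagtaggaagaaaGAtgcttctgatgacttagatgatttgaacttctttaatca
Gm9892, minus strand, chr8:52196824-52196903: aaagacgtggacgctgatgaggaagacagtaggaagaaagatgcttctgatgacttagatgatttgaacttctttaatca
Eif3e, exons 9 and 10, minus strand, chr15:43262599-43262638 and chr15:43261130-43261169: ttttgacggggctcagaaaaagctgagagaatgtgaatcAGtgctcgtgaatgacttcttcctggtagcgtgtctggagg
Eif3s6-ps1, minus strand, chr11:9737495-9737574: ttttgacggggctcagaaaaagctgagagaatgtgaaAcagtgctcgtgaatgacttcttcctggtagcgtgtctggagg
The pseudogene stretch matched its gene at 80 of 80 bases for Gm13456 and for Gm9892, and at 79 bases with 1 mismatch for Eif3s6-ps1. These stretches do not give the identity of the whole copies, which matched less closely elsewhere. Of all short base runs in a copy (the words described below), the gene held 70.5% for Gm13456, 87.1% for Gm9892 and 56.7% for Eif3s6-ps1.

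By shared 25-base words, 30 annotated processed pseudogenes were matched to 14 of the 34 genes. They held 0.293% of gene plus pseudogene counts in the deep library, 17.3% and 16.7% in the other Sirpa-KO libraries, and 17.8% ± 0.169 in Sirpa-WT (SD, n = 3). The split thus set the deep library apart from the shallow ones of both genotypes. Eef1a1, whose product delivers aminoacyl-tRNA to the ribosome, shared 43.8% of its words with pseudogenes, the highest share of the 34; Eif3m had 28.7% and Eef2 28.4%. The 4 pseudogenes of Eef1a1 together had 1572, 1837 and 1901 counts in Sirpa-KO and 2256, 1889 and 1910 in Sirpa-WT. Gm13456 supplied most of these in the shallow libraries, with 1338 and 1366 counts in Sirpa-KO replicates 2 and 3 and 1750, 1489 and 1475 in Sirpa-WT. Eif3e, an eIF3 subunit gene, had 17820, 47 and 43 counts in Sirpa-KO and 40, 39 and 27 in Sirpa-WT. Its 2 pseudogenes had 61, 163 and 164 counts in Sirpa-KO and 190, 151 and 165 in Sirpa-WT, so they outnumbered the gene in each shallow library. Eif4a1 has 1 matched pseudogene, Gm5513, with 2, 56 and 53 counts in Sirpa-KO and 45, 43 and 42 in Sirpa-WT. Eif5a also has 1, Eif5al3-ps, with 20, 24 and 28 counts in Sirpa-KO and 20, 18 and 23 in Sirpa-WT. Of the 19 pseudogenes that could be tested over the shallow libraries, 2 fell, Gm13456 and Gm9892, and 1 rose, the Eif2s1 copy Gm12734 (0.98 ± 0.31, SE, edgeR adjusted p = 0.0324), where the same fit called 4.52% of all genes lower and 1.32% higher. Values of these 14 genes are uncertain to the extent that the authors' counting split them from their copies. The counting was not set to include multi-mapping reads. Fragments placed equally on gene and copy may thus be missing from both, and a sum of the 2 does not bring them back.

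**Figure D1:**
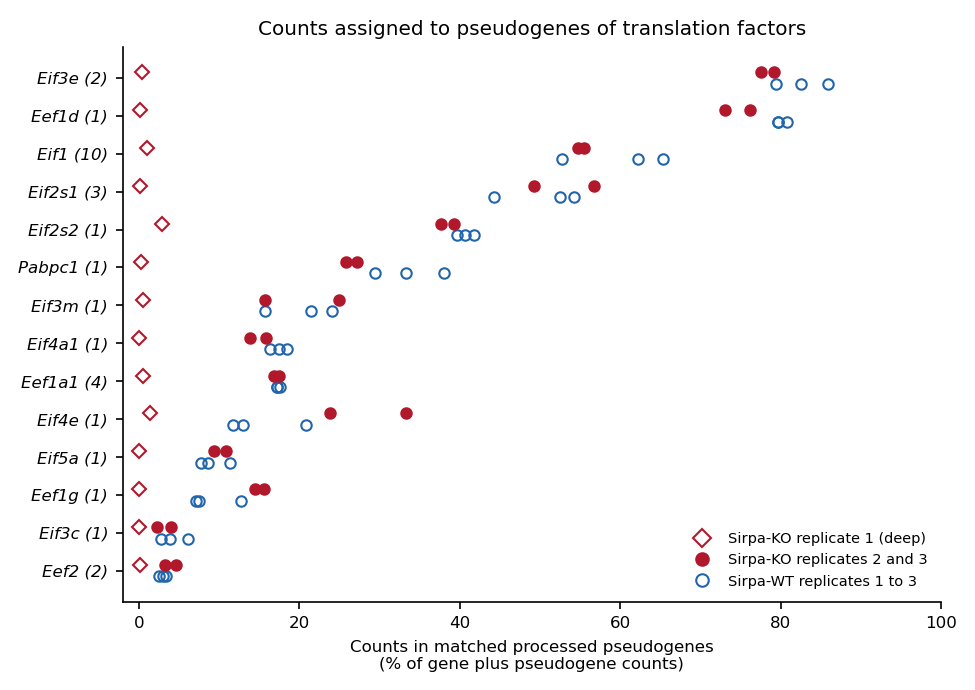
Counts in matched processed pseudogenes as a percentage of gene plus pseudogene counts (x axis), for the 14 translation factor genes with such copies (y axis, number of pseudogenes in brackets). Points are single libraries; the deep Sirpa-KO library lies at or below 2.86% for each gene, while the shallow libraries reach 79.2% in Sirpa-KO and 85.9% in Sirpa-WT for Eif3e.

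Levels between genes were compared as FPKM, the CPM divided by the merged exon length in kilobases. Eef1a1 stood far above the rest, at 10236 ± 57.01 FPKM (SD, n = 2) in shallow Sirpa-KO and 10502 ± 118 FPKM (SD, n = 3) in Sirpa-WT. Eef2, which encodes the translocation factor, followed at 787 ± 130 FPKM in shallow Sirpa-KO and 941 ± 50.01 FPKM in Sirpa-WT. Below it, Eif5 had 374 ± 19.1 and 368 ± 3.28 FPKM, Eif5a 276 ± 45.6 and 232 ± 13.3 FPKM, and Eif2s2 265 ± 15.01 and 308 ± 9.31 FPKM, in shallow Sirpa-KO and in Sirpa-WT. Eif5a and Eif2s2 overlapped within their spread in shallow Sirpa-KO but stood apart in Sirpa-WT. The lowest was Eif3f, an eIF3 subunit gene, at 2.39 ± 1.94 and 3.86 ± 3.36 FPKM. It had 1 and 4 counts in the shallow Sirpa-KO libraries and 9, 3 and 1 counts in Sirpa-WT, against 3502 counts in the deep library.

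The 34 genes took 2.70%, 4.04% and 4.08% of all counts in Sirpa-KO replicates 1 to 3 and 4.05%, 4.05% and 3.97% in Sirpa-WT. Eef1a1 alone made up 36.9% of their counts in the deep library, 62.8% ± 0.859 (SD, n = 2) in the other Sirpa-KO libraries and 65.1% ± 0.225 (SD, n = 3) in Sirpa-WT. Without Eef1a1, the remaining 33 took 1.70%, 1.48% and 1.54% of counts in Sirpa-KO and 1.42%, 1.41% and 1.39% in Sirpa-WT, so that each Sirpa-KO library lay above each Sirpa-WT library. The typical gene leaned the same way on this scale. With library size alone, the median log2 fold change over all genes tested was 0.15 over the shallow libraries and 0.36 over all 6.

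**Figure D2:**
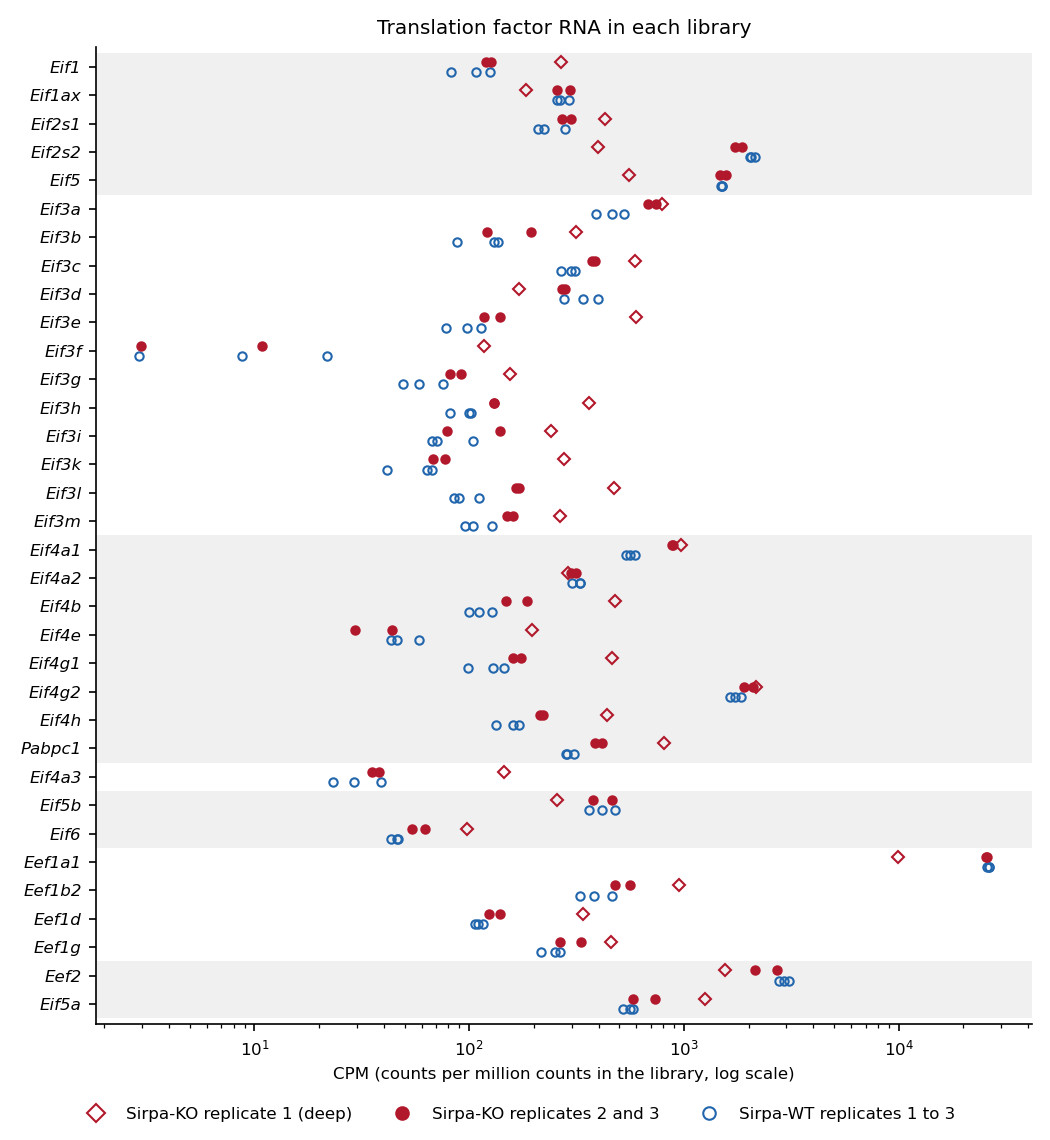
CPM of each of the 34 genes (x axis, log scale) in every library, genes ordered by factor group from 43S assembly at the top to eEF2 and eIF5A at the bottom, with alternate groups shaded. Eef1a1 lies at 25417 and 25618 CPM in the shallow Sirpa-KO libraries and 25855 to 26430 CPM in Sirpa-WT, but at 9961 CPM in the deep library, and Eif3f is the lowest in the shallow libraries.

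The comparison of genotypes asks how steady-state RNA of these genes differs between Sirpa-KO and Sirpa-WT cells. Without the deep library, 3 of the 33 genes that passed the count filter rose in Sirpa-KO (Eif4a1, Eif3a and Eif3l), 2 fell (Eef2 and Eif2s2) and 28 did not pass edgeR's quasi-likelihood test at an adjusted p under 0.05. Over all 5510 genes tested the same fit called 5.84%, with 1.32% higher and 4.52% lower. With all 6 libraries none of the 33 was called, and 0% of 5397 genes were (edgeR, smallest adjusted p = 0.574). At an unadjusted p under 0.05 the 6-library fit passed 1 of the 33, Eif3l, and 344 of all genes. DESeq2 called 0 of the 33 over 6 libraries, where it called 0.0185% of all genes, and limma voom called 1, Eif4a1, where it called 23.8%, nearly all lower (0.315% higher). Eif3f had too few counts in the shallow libraries to be tested.

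More of the genes leaned upward than downward. Of the 33, 24 had a positive log2 fold change without the deep library and 9 a negative one, where 51.2% and 48.8% of all genes did. Their median was 0.23, against 0.013 over all genes tested and 0.036 over protein-coding genes. With a trend removed from each library (log2 CPM smoothed against the ratio of the deep library to the others), it was 0.09, against 0.0035 over all genes. In CPM, 18 of the 33 lay higher in both shallow Sirpa-KO libraries than in any Sirpa-WT library, where 26.3% of all genes and 28% of protein-coding genes did. Another 3 (Eif2s2, Eef1a1 and Eef2) lay lower in both, where 11.8% of all genes and 10.3% of protein-coding genes did. The same 18 and 3 stood apart when the deep library was included, against 20.4% and 10.2% of all genes and 25.6% and 8.16% of protein-coding genes. With library size alone as the scaling, 5 of the 33 were called, all higher, where 7.39% of all genes were (5.06% higher, 2.32% lower). The median over all genes was then 0.15 and that over the 33 was 0.37. Unless another scaling is named, each log2 fold change given here is relative to the typical gene under TMM scaling. The comparisons in CPM use library totals alone, a scale on which the typical gene leaned upward.

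**Figure D3:**
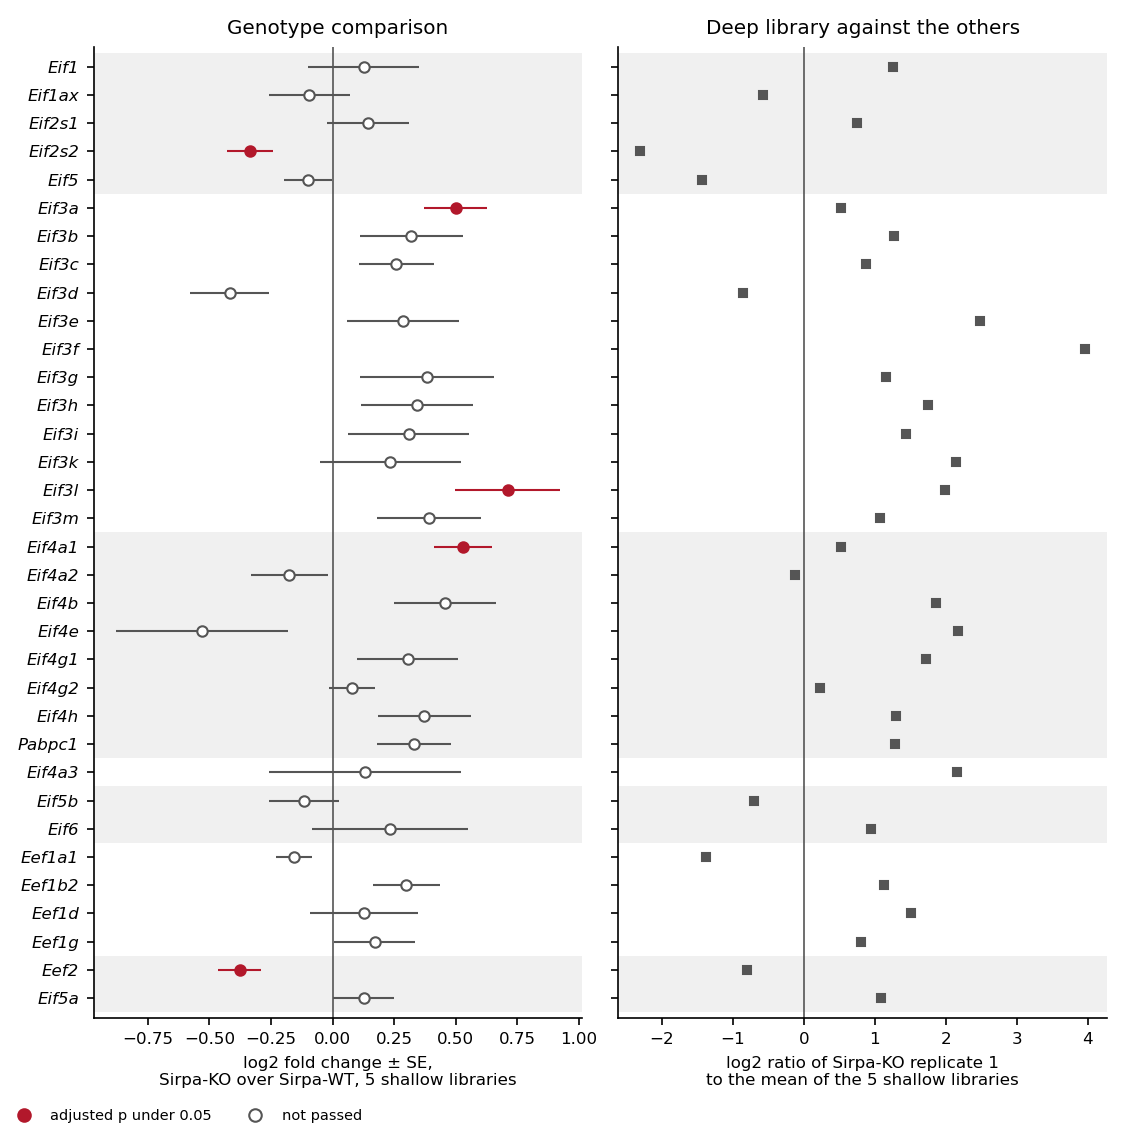
Left, log2 fold change of Sirpa-KO over Sirpa-WT with its SE for the 33 genes tested over the 5 shallow libraries, filled where the adjusted p was under 0.05. Right, log2 ratio of CPM in the deep Sirpa-KO library to the mean of the 5 shallow libraries for all 34 genes; the 8 genes left of 0 on the right are also left of 0 on the left.

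Among the 5 genes of 43S assembly, 1 fell, none rose and 4 did not pass, with a median log2 fold change of -0.10. Eif2s2 encodes the β subunit of eIF2, the factor that brings the initiator tRNA. It had 397, 1862 and 1719 CPM in Sirpa-KO and 2052, 2149 and 2032 CPM in Sirpa-WT, so each Sirpa-KO library lay below each Sirpa-WT library, the deep one by far the most. Its log2 fold change was -0.33 ± 0.09 without the deep library (SE, edgeR adjusted p = 0.0109) and -0.78 ± 0.69 with it (adjusted p = 0.635). Its pseudogene Gm9892, shown above, had 349, 382 and 410 counts in Sirpa-KO and 580, 531 and 461 in Sirpa-WT, and also fell over the 5 shallow libraries (-0.47 ± 0.10, edgeR adjusted p = 0.000314). Summed with that copy, Eif2s2 was at -0.39 (adjusted p = 0.000686). The call on Eif2s2 ended with library size alone (-0.20), with the trend on the deep library's ratio removed (-0.13), and without Sirpa-WT replicate 2 (-0.32), Sirpa-KO replicate 2 (-0.42) or Sirpa-KO replicate 3 (-0.29).

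The other 4 genes of this step did not pass. Eif5, the GTPase activator of eIF2, had 555, 1573 and 1463 CPM in Sirpa-KO and 1508, 1495 and 1482 CPM in Sirpa-WT, a log2 fold change of -0.10 ± 0.10 over the shallow libraries. Only its deep library lay away from the rest. Eif2s1, the α subunit whose phosphorylation slows initiation, had 427, 272 and 296 CPM in Sirpa-KO and 209, 224 and 281 CPM in Sirpa-WT (0.14 ± 0.17). Eif1ax was at -0.10 ± 0.16 and Eif1 at 0.13 ± 0.23, and both guard start codon choice. Eif1 has 10 matched pseudogenes, which held 1.03%, 54.7% and 55.6% of gene plus pseudogene counts in Sirpa-KO and 65.3%, 62.2% and 52.7% in Sirpa-WT. Summed with them, Eif1 was at -0.05.

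The eIF3 complex, the scaffold that binds the small ribosomal subunit and the mRNA, contributed 12 genes, of which 11 were tested. Of these, 2 rose, none fell and 9 did not pass. The log2 fold change was positive for 10 of the 11, with a median of 0.32 (0.11 with the trend removed). In CPM, 8 lay higher in both shallow Sirpa-KO libraries than in any Sirpa-WT library, where 26.3% of all genes and 28% of protein-coding genes did. Eif3a, the largest core subunit, had 786, 741 and 680 CPM in Sirpa-KO and 527, 462 and 391 CPM in Sirpa-WT. The groups did not overlap and the deep library lay with the other Sirpa-KO libraries. Eif3a rose by 0.50 ± 0.13 on the log2 scale without the deep library (SE, edgeR adjusted p = 0.00351). It was called in 17 of 18 settings and not without Sirpa-KO replicate 2 (0.41). Its words hardly occur in pseudogenes (0.0457%), and the value with the trend removed was 0.46 (adjusted p = 0.0141).

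Eif3l, a subunit of the outer part of the complex, had 473, 171 and 166 CPM in Sirpa-KO and 85.01, 111 and 89.7 CPM in Sirpa-WT. All 3 Sirpa-KO libraries lay above Sirpa-WT, the deep one furthest. It rose by 0.71 ± 0.21 without the deep library (edgeR adjusted p = 0.0204), on 58 and 61 counts in Sirpa-KO against 35, 38 and 31 in Sirpa-WT. The call ended with no count filter (0.67), with the filter at 1 CPM (0.67) and with the replicate number as a block (0.63). It also ended with the trend removed (0.47), and without Sirpa-WT replicate 1 (0.63), Sirpa-KO replicate 2 (0.67) or Sirpa-KO replicate 3 (0.72). DESeq2 put Eif3l at 0.71 without the deep library but gave it no adjusted p.

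The other tested eIF3 subunits ranged from 0.23 for Eif3k to 0.39 for Eif3m, apart from Eif3d. Eif3f, under the count filter, was at -0.86 ± 0.76 (SE) in a fit without that filter. Eif3m had 264, 151 and 160 CPM in Sirpa-KO and 104, 96.0 and 127 CPM in Sirpa-WT (0.39 ± 0.21, edgeR adjusted p = 0.274). Eif3h had 361, 130 and 131 CPM in Sirpa-KO and 99.6, 102 and 81.0 CPM in Sirpa-WT (0.34 ± 0.23, adjusted p = 0.402). Both stood apart between the groups without passing, as 20.4% of all genes stood apart with Sirpa-KO above over the 6 libraries. Eif3e, at 0.28 ± 0.23, was at -0.03 once its pseudogenes were summed with it.

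Eif3d, the subunit that binds the cap of some mRNAs, was the 1 tested member of the complex with a negative value. It had 171, 280 and 269 CPM in Sirpa-KO and 340, 276 and 396 CPM in Sirpa-WT, a log2 fold change of -0.42 ± 0.16 (edgeR adjusted p = 0.0922), and the shallow groups overlapped. The counting used no strand, and 32.7% of its exon bases overlap Gm17638 on the other strand, so reads of the pair cannot be told apart. On the FPKM scale Eif3d was the highest eIF3 subunit in the shallow libraries, at 144 ± 4.12 in Sirpa-KO (SD, n = 2) and 177 ± 31.5 in Sirpa-WT (SD, n = 3). In the deep library it had 89.5 FPKM, below 9 of the other 11 subunits, where Eif3e led with 387 FPKM. The order of subunits thus differed between the deep library and the rest.

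Of the 8 genes of the eIF4 group with poly(A)-binding protein, 1 rose, none fell and 7 did not pass, with a median log2 fold change of 0.32 (0.11 with the trend removed). Eif4a1 encodes the main eIF4A helicase of growing cells. It had 970, 877 and 892 CPM in Sirpa-KO and 561, 590 and 538 CPM in Sirpa-WT, a clear gap in which the deep library sat beside the other Sirpa-KO libraries. Eif4a1 (GRCm38 chromosome 11, 69666936 to 69672423, minus strand) rose by 0.53 ± 0.12 without the deep library (SE, edgeR adjusted p = 0.000474). With all 6 libraries the value was 0.54 ± 0.32 (adjusted p = 0.574). It was called in 16 of 17 settings, with values of 0.49 to 0.67, and not without Sirpa-KO replicate 3 (0.51, adjusted p = 0.0621). It shares 12.8% of its words with pseudogenes and was at 0.49 (adjusted p = 0.000781) when summed with Gm5513.

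The paralogue Eif4a2, whose product is close to eIF4A1 in protein sequence, showed no such gap. It had 288, 316 and 299 CPM in Sirpa-KO and 328, 302 and 327 CPM in Sirpa-WT, so the groups overlapped (-0.18 ± 0.16, edgeR adjusted p = 0.57). Eif4a1 therefore made up 77.1%, 73.5% and 74.9% of the summed counts of the pair in Sirpa-KO and 63.1%, 66.1% and 62.2% in Sirpa-WT. Exact 95% binomial intervals, which cover counting error only, ran from 68.9 to 78.9% in Sirpa-KO and from 56.4 to 71.4% in Sirpa-WT. The mean share was 75.2% ± 1.83 in Sirpa-KO and 63.8% ± 2.05 in Sirpa-WT (SD, n = 3 each), a difference of 11.4 percentage points. All 3 Sirpa-KO libraries lay above all 3 Sirpa-WT libraries, and the 2-sided exact permutation test gave p = 0.1, the smallest that 3 against 3 can give. The share needs no scaling between libraries, but it uses the same counts as the Eif4a1 call and is not separate from it. It also leaves out Gm5513, which held 0.0069%, 15.9% and 13.9% of Eif4a1 plus Gm5513 counts in Sirpa-KO and 16.3%, 17.5% and 18.4% in Sirpa-WT. The 2 mRNAs share 0 of 4476 words of Eif4a1, and 6.62% of the exon bases of Eif4a1 and 13.2% of those of Eif4a2 overlap other genes.

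**Figure D4:**
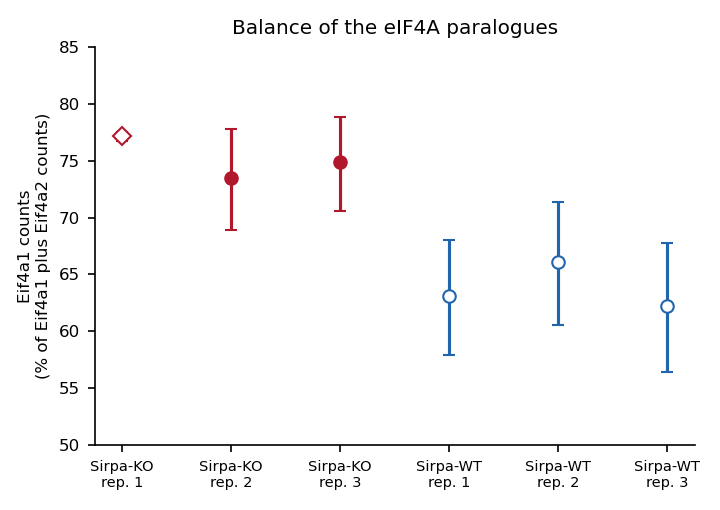
Eif4a1 counts as a percentage of Eif4a1 plus Eif4a2 counts (y axis, which begins at 50%) in each library, with exact 95% binomial intervals for counting error. Sirpa-KO libraries lie at 73.5 to 77.1% and Sirpa-WT libraries at 62.2 to 66.1%.

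The scaffold and accessory genes of this group leaned upward without passing. Eif4b, a cofactor of eIF4A, had 475, 148 and 185 CPM in Sirpa-KO and 99.6, 111 and 127 CPM in Sirpa-WT (0.46 ± 0.21, edgeR adjusted p = 0.177). Eif4h, a related cofactor, had 436, 213 and 220 CPM in Sirpa-KO and 134, 160 and 171 CPM in Sirpa-WT (0.37 ± 0.19, adjusted p = 0.237). Pabpc1, the cytoplasmic poly(A)-binding protein gene, had 808, 387 and 413 CPM in Sirpa-KO and 308, 285 and 284 CPM in Sirpa-WT (0.33 ± 0.15, adjusted p = 0.178). Each of these 3 stood apart between the groups with Sirpa-KO above, where 20.4% of all genes did over the 6 libraries. Pabpc1 was called with library size alone (0.47). Summed with its pseudogene Gm16580, Pabpc1 was at 0.17 (edgeR adjusted p = 0.486). The cap-bridging scaffold Eif4g1 was at 0.31 ± 0.20, and its relative Eif4g2, which works without the cap-binding protein, was at 0.08 ± 0.09.

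The cap-binding protein gene Eif4e had the most negative value of the 33, at -0.53 ± 0.35 (edgeR adjusted p = 0.397), on 10 and 16 counts in the shallow Sirpa-KO libraries and 19, 20 and 15 in Sirpa-WT. In CPM it had 196, 29.5 and 43.5 in Sirpa-KO and 46.2, 58.2 and 43.4 in Sirpa-WT, so the deep library lay far above Sirpa-WT while the shallow groups overlapped. Eif4a3, a helicase of the exon junction complex despite its name, did not pass (0.13 ± 0.39). Of the subunit-joining genes, Eif5b was at -0.12 ± 0.14 and Eif6, which keeps the large subunit free, at 0.23 ± 0.32, and 15.9% of the exon bases of Eif5b overlap Rev1 on the other strand.

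None of the 4 eEF1 genes passed. Eef1a1 had 9961, 25618 and 25417 CPM in Sirpa-KO and 26257, 26430 and 25855 CPM in Sirpa-WT. Its log2 fold change was -0.16 ± 0.07 (edgeR adjusted p = 0.184). Over the same 5 libraries limma voom called Eef1a1 lower, in a fit whose share of all genes called is not given. DESeq2 did not call it (-0.16, adjusted p = 0.19), and with the trend removed it was at 0.12 (edgeR adjusted p = 0.471). Its pseudogene Gm13456 fell by 0.28 ± 0.08 on the log2 scale (edgeR adjusted p = 0.021). The genes of the exchange complex that recharges eEF1A with GTP leaned the other way. Eef1b2 had 949, 475 and 563 CPM in Sirpa-KO and 328, 381 and 463 CPM in Sirpa-WT (0.30 ± 0.14, adjusted p = 0.179), and was called with library size alone (0.44). Eef1g was at 0.17 ± 0.17 and Eef1d at 0.13 ± 0.22. Eef1d was at -0.21 when summed with its pseudogene Gm11675, which held 0.139%, 73.1% and 76.2% of the summed counts in Sirpa-KO and 79.7%, 80.8% and 79.7% in Sirpa-WT.

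Eef2 had 1556, 2152 and 2723 CPM in Sirpa-KO and 3068, 2917 and 2758 CPM in Sirpa-WT. Each Sirpa-KO library lay below each Sirpa-WT library, although replicate 3 of each group nearly met. Eef2 (GRCm38 chromosome 10, 81176631 to 81182507, plus strand) fell by 0.38 ± 0.09 on the log2 scale without the deep library (SE, edgeR adjusted p = 0.0013). With all 6 libraries it was at -0.59 ± 0.51 (adjusted p = 0.624). The call ended with library size alone (-0.24), with the trend removed (-0.17) and without Sirpa-KO replicate 2 (-0.24). For every 100 Eef1a1 counts there were 15.6, 8.40 and 10.71 Eef2 counts in Sirpa-KO and 11.7, 11.04 and 10.67 in Sirpa-WT. On that scale, which needs no scaling between libraries, the groups overlapped. Eef1a1 was itself lower in CPM in each Sirpa-KO library and shares 43.8% of its words with pseudogenes, so the ratio hides any fall common to both genes. Eif5a, whose hypusine-bearing product helps ribosomes past stalls, had 1251, 578 and 732 CPM in Sirpa-KO and 581, 558 and 518 CPM in Sirpa-WT (0.13 ± 0.12, edgeR adjusted p = 0.614), with the shallow groups overlapping.

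**Figure D5:**
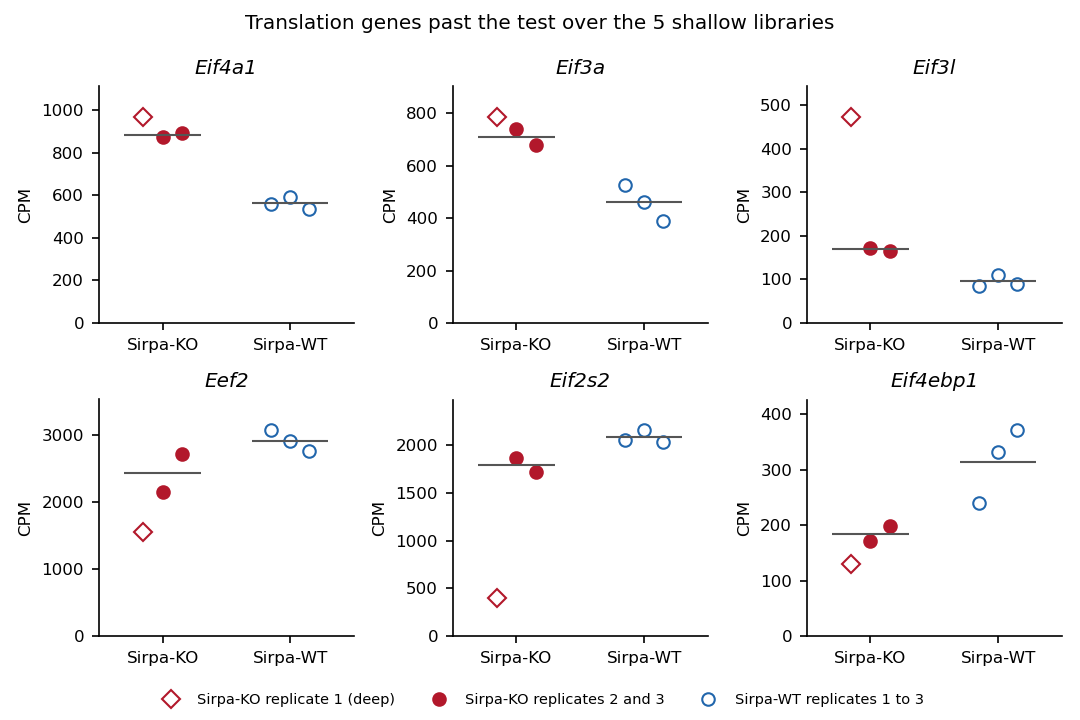
CPM (y axis, from 0) of the 5 translation factor genes past the test without the deep library, and of Eif4ebp1, by group and library. Horizontal lines are means of the shallow libraries of each group; for Eif4a1 and Eif3a the deep library lies beside the other Sirpa-KO libraries, while for Eif2s2 and Eif3l it lies far from them.

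The deep library stood higher than the mean of the shallow ones for 26 of the 34 genes and lower for 8, namely Eif1ax, Eif2s2, Eif5, Eif3d, Eif4a2, Eif5b, Eef1a1 and Eef2. Their log2 ratios ran from -2.30 for Eif2s2 to 3.96 for Eif3f, with a median of 1.11, and 67.8% of protein-coding genes tested stood higher too. The 8 lower genes had log2 fold changes between the shallow groups of -0.42 to -0.10, all negative. The 25 higher genes that were tested had -0.53 to 0.71, of which 24 were positive and Eif4e was not. Over protein-coding genes the median log2 fold change between the shallow groups was 0.18 for those higher in the deep library and -0.26 for those lower. The ratio and the fold change use the same shallow libraries. Around 6 of the 8 lower genes, the nearest genes on the chromosome (up to 5 on each side, sharing little sequence with pseudogenes) had a median ratio above 0. The exceptions were Eef2 (-0.70) and Eif1ax (-0.17). A positive median was the usual case, since it was below 0 around only 2 of the 26 higher genes. The pool of 3709 genes from which neighbours came had a median ratio of 0.98, with 32.0% below 0. With the trend on the ratio removed, the 8 lower genes lay between -0.20 and 0.18, Eif3a and Eif4a1 were still called higher and none was called lower, where 1.89% of all genes were called (0.635% higher, 1.25% lower). Why the deep library differs was not tested.

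Outside the 34, 100 genes in 7 lists of the translation machinery and its regulators were examined over the 5 shallow libraries. Of these, 53 passed the count filter, 2 rose and 1 fell, a share near the 5.84% of all genes called in that fit (1.32% higher, 4.52% lower). Eif4ebp1, which encodes the 4E-BP1 repressor that sequesters eIF4E until mTORC1 phosphorylates it, had 130, 171 and 199 CPM in Sirpa-KO and 240, 332 and 370 CPM in Sirpa-WT. The groups did not overlap, and the deep library was the lowest. It fell by 0.87 ± 0.17 on the log2 scale (SE, edgeR adjusted p = 6.81e-05) and was called in all 18 settings, at -1.04 to -0.64. It was the only call among 8 tested eIF4F regulators and mTORC1 genes, whose median was 0.27.

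Ddx3x, an RNA helicase that assists scanning of structured leaders, had 1029, 469 and 549 CPM in Sirpa-KO and 301, 361 and 313 CPM in Sirpa-WT. It rose by 0.53 ± 0.14 (edgeR adjusted p = 0.00627), a call that ended with the trend removed (0.31) and without Sirpa-KO replicate 3 (0.40). It was the 1 call among 10 tested other initiation factors. Etf1, the release factor eRF1, had 623, 419 and 397 CPM in Sirpa-KO and 248, 262 and 272 CPM in Sirpa-WT. It rose by 0.53 ± 0.15 (edgeR adjusted p = 0.0161), the 1 call among 4 tested termination and recycling genes. That call ended in 7 of 18 settings, among them DESeq2 (0.53), the trend removed (0.37) and leaving out Sirpa-WT replicate 2 (0.53), Sirpa-KO replicate 2 (0.47) or Sirpa-KO replicate 3 (0.55).

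The remaining 4 lists had no call in edgeR's test over 5 libraries. None of 18 tested cytosolic aminoacyl-tRNA synthetase genes passed, with a median of -0.02, and the most abundant, Dars, was at 0.32 (adjusted p = 0.248). Of the eIF2B and eIF2 kinase list none of 8 passed, and Eif2b3, a subunit of the eIF2B exchange factor, was at 0.10. Neither of the other elongation factors tested passed; Tufm, which serves mitochondrial translation, was at 0.38 and shares 59.7% of its words with pseudogenes. Of 3 hypusine and diphthamide synthesis genes none passed, and Dph5, which acts on the modified histidine of eEF2, was at 0.04. Over all 6 libraries 0 genes of the 7 lists were called by edgeR.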

How the data were processed

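RNA of 6 libraries was prepared with a stranded poly(A) kit, per the labels' protocols. The deposited values are raw counts of fragments by gene. The authors ran featureCounts 1.5.1 on exons of Ensembl 75 (GRCm38), per the file headers, setting neither a strand option nor one that counts multi-mapping reads. STAR 2.6.0 and Subread stand in the submitters' processing notes. Nothing was normalized before deposit.

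Groups and replicate numbers came from sample titles. Counts were filtered with filterByExpr (minimum count 10), scaled by TMM and tested, 2-sided, with edgeR's quasi-likelihood test (robust) and Benjamini-Hochberg adjustment over all genes at 0.05, over 6 libraries and without Sirpa-KO replicate 1. DESeq2 1.42.0, limma 3.58.1 (voom) and edgeR 4.0.16 ran under R 4.3.3. CPM and FPKM were computed from the counts. Gene symbols and pseudogenes came from GENCODE M21, and 37693 of 39179 identifiers had a symbol. A pseudogene was matched to a gene where they shared at least 50 words of 25 bases, making up at least 20% of the pseudogene's words. One alternative removed a trend: within each library, log2 CPM was smoothed by lowess (span 0.3) against how far Sirpa-KO replicate 1 stood from the others. In a simulation of the 5-library fit (5510 genes, its own dispersions), 14.3% of 1.5-fold changes were called, 42.7% of 2-fold ones and 89.9% of 4-fold ones. There 1 of 103 calls was false. The simulated counts held no trend of this kind, so that share need not hold for the real fit. Recovery was incomplete, so a gene that did not pass may still differ. These rates pool all genes tested, and how far a given gene may differ depends on its own SE. Counting intervals are exact binomial at 95%.

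The 34 genes and the 7 lists were chosen with earlier results of these data known. All 34 were described, and of each list up to 4 called genes or else the most abundant. No pair of shallow replicates agreed within counting error (chi-square over degrees of freedom, 1.15 to 1.45), and each was kept as a sample.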

Additional observations from a re-analysis of the deposited data

How the results depend on the processing

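Over 6 libraries the count of translation factors called, 0 in edgeR (1 of 33 before adjustment at 0.05), was 0 in the other settings too, except limma voom, which called 1, higher, and leaving out each library, which gave 0 to 5 (0 to 3 higher, 0 to 2 lower), the 5 without Sirpa-KO replicate 1. Without that library the counts were 3 higher and 2 lower. They became 5 higher and 0 lower with library size alone, where 7.39% of all genes were called. With the trend removed they were 2 called and 0 lower, where 1.89% of all genes were called. In genes with under 5% of words shared with pseudogenes, where fewer genes were tested, they were 2 called and 0 lower. Leaving out each remaining library gave 1 to 6 called, 1 to 4 higher and 0 to 2 lower; it was 1 without Sirpa-KO replicate 2 and 2 without Sirpa-KO replicate 3, fits in which the lone shallow Sirpa-KO library is assumed to vary like Sirpa-WT. The cause of these differences was not tested. For the under-5% fit, the replicate block and the fits that leave out a remaining library, the share of all genes called is not given. Those counts therefore cannot be read against the background. No called gene reversed, and 14 of the 33 had another sign in some 5-library setting without being called there. The replicate numbers did not pair the samples (r of same-numbered libraries 0.015, -0.047 and 0.055); with the replicate block 4 genes were called, 2 higher and 2 lower, and 0 over 6 libraries. The genes' share of counts was 5.72% in shallow Sirpa-KO, 5.87% in Sirpa-WT and 2.74% in the deep library over protein-coding counts, and 4.90%, 4.90% and 2.70% with pseudogenes added. At their depth the shallow libraries allow a test only of genes with about 10 counts or more.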
